A study of Mus musculus with 12 samples.

Results

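The expression of hypoxia and glycolysis genes was examined in whole-tumor RNA from 12 subcutaneous LLC tumors. LLC is the Lewis lung carcinoma line of mouse. The genes are a list of 43 that encode glycolytic enzymes, the oxygen-sensing system and other targets of the hypoxia-inducible factor HIF. They were looked up by symbol in the annotation of the Affymetrix array, and 41 of the 43 had a probe set assigned to that symbol alone, out of 18194 genes measured. Eno1 and Bnip3l had none. Each gene was represented by its probe set of highest mean log2 intensity over the 12 arrays, and all 41 lay above the filter on low values, which left 12736 genes tested. Gapdh was represented by one of the array's own Gapdh control probe sets, since its other probe sets also match further genes.

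The 4 groups held 3 tumors each, all grown in female C57BL/6 mice of 6 to 8 weeks and taken on day 19 after injection. Control tumors received the antibody 13C4, and 1D11 tumors received 1D11, an antibody that neutralizes TGF-beta and of which 13C4 is the isotype control. Radiation tumors received 13C4 and radiation, and 1D11_radiation tumors received 1D11 and radiation. The treatment label gives 5 fractions of 6 Gy, whereas the sample description gives 2 Gy. Mice entered the groups at random once tumors measured 60 to 80 mm3, and the titles call the samples cells, whereas the protocol describes tumors. The series title ties TGF-beta to resistance to radiotherapy. All tumors descend from a single cell line, and each sample holds tumor cells together with the host's vessels, stroma, leukocytes and any neighbouring tissue. In such bulk RNA, a change in the share of cells that make a transcript and a change in transcript per cell cannot be told apart. The labels do not say whether the 3 samples of a group came from separate mice, so p-values measure the spread between these samples.

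When oxygen is short, HIF-1alpha escapes hydroxylation by the prolyl hydroxylases that mark it for destruction, pairs with ARNT and binds a short core motif in its target genes. Its targets carry glucose into the cell, speed its breakdown to lactate, divert pyruvate from mitochondria, export acid, modify collagen and remove mitochondria. Solid tumors commonly show this program in regions far from vessels, and many tumor cells also keep glycolysis high when oxygen is present.

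Irradiated tumors held higher levels of most of these genes than unirradiated ones. Averaged over both antibodies, 36 of 41 members were higher in the 6 irradiated tumors, against 45.3% of all tested genes. By limma, 13 members rose (adjusted p under 0.05) and none fell. Of all tested genes 7.26% were called, 3.39% higher and 3.87% lower. The median log2 difference over the members was 0.27, and over all genes tested it was -0.01. Of 15 measured glycolytic enzymes 6 rose, with a median of 0.18. Of 26 other members 7 rose, with a median of 0.29. In 5 members (Pgk1, Pkm, Ldha, Gapdh and Gys1) every irradiated tumor lay above every unirradiated one, a pattern that 1.96% of all tested genes showed in that direction.

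**Figure D1:**
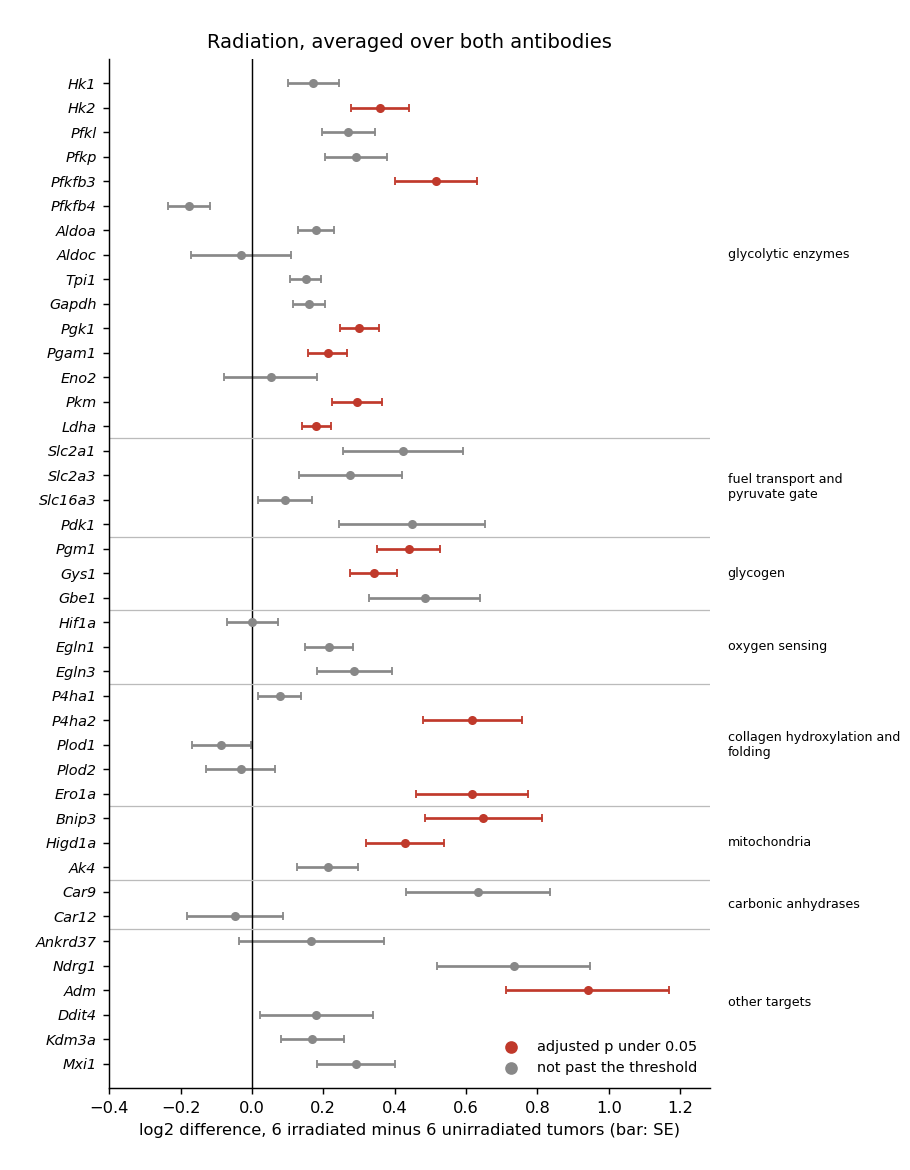
Log2 difference between 6 irradiated and 6 unirradiated tumors for each of the 41 measured members, grouped by role, with bars for the SE of the limma fit. The 13 red points, 6 of them glycolytic enzymes, passed an adjusted p of 0.05 over all tested genes; Adm lies farthest right at 0.94 and Pfkfb4 farthest left at -0.18.

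Among the glycolytic enzymes, Pgk1, which makes ATP in the later part of the pathway, had log2 intensities of 13.39, 13.57 and 13.63 in control, 13.47, 13.43 and 13.48 in 1D11, 13.81, 13.84 and 13.66 in radiation, and 13.78, 13.80 and 13.91 in 1D11_radiation tumors. All 6 irradiated tumors were above all 6 others, and the log2 difference was 0.30 ± 0.05 (SE, 1.23-fold, adjusted p = 0.0111). Hk2, the hexokinase that traps glucose in the cell, was at 11.20, 11.54 and 11.44 in control, 11.17, 11.20 and 11.04 in 1D11, 11.72, 11.57 and 11.66 in radiation, and 11.69, 11.36 and 11.74 in 1D11_radiation tumors. The groups overlapped only through 1D11_radiation replicate 2, which lay below control replicates 2 and 3, and Hk2 rose by 0.36 ± 0.08 (1.28-fold, adjusted p = 0.0238). Pfkfb3 makes the sugar phosphate that activates phosphofructokinase. Its values were 7.43, 7.45 and 7.34 in control, 7.27, 6.93 and 7.13 in 1D11, 8.20, 7.85 and 7.39 in radiation, and 7.77, 7.66 and 7.78 in 1D11_radiation tumors. Radiation replicate 3 was the single irradiated tumor within the unirradiated range, and Pfkfb3 rose by 0.52 ± 0.11 (1.43-fold, adjusted p = 0.0235). The second probe set of Pfkfb3, which was dimmer, differed by -0.02.

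Of the closing steps of glycolysis, Ldha and Pgam1 moved by less than Pgk1, Hk2 and Pfkfb3, and Pkm by about as much as Pgk1. The pooled SD within groups was 0.05 for Ldha, 0.08 for Pgam1 and 0.12 for Pkm, against 0.09 for Pgk1. Ldha, which turns pyruvate into lactate, was at 13.34, 13.44 and 13.45 in control and 13.42, 13.39 and 13.43 in 1D11 tumors. It was at 13.59, 13.57 and 13.55 in radiation and 13.56, 13.59 and 13.67 in 1D11_radiation tumors. The 2 sets of 6 did not overlap, and the rise was 0.18 ± 0.04 (1.13-fold, adjusted p = 0.026). Pkm, pyruvate kinase, was at 12.36, 12.71 and 12.77 in control, 12.54, 12.61 and 12.66 in 1D11, 12.87, 12.90 and 12.78 in radiation, and 12.93, 12.90 and 13.03 in 1D11_radiation tumors. It rose by 0.29 ± 0.07 (adjusted p = 0.0299), again without overlap. Pgam1, phosphoglycerate mutase, ran from 12.40 to 12.60 in unirradiated and from 12.54 to 12.81 in irradiated tumors and rose by 0.21 ± 0.05 (adjusted p = 0.0389).

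Other enzymes of the chain had like sizes just short of the threshold. Pfkl, a phosphofructokinase, differed by 0.27 ± 0.07 (adjusted p = 0.0507), Gapdh by 0.16 ± 0.04 (0.0532), the aldolase Aldoa by 0.18 ± 0.05 (0.0541), Tpi1, triosephosphate isomerase, by 0.15 ± 0.04 (0.0585) and the phosphofructokinase Pfkp by 0.29 ± 0.09 (0.0635). For Pfkl, Pfkp, Aldoa, Tpi1 and Gapdh, each probe set with a single symbol was higher in irradiated tumors, between 0.12 and 0.37. Pfkfb4, a relative of Pfkfb3, was lower, at -0.18 ± 0.06 (adjusted p = 0.0906). Hk1, the hexokinase found in most tissues, had 0.17 ± 0.07 (0.16). Aldoc at -0.03 ± 0.14 and the neuronal enolase Eno2 at 0.05 ± 0.13 had differences within their errors. Eno2 had a mean of 5.78, close to the filter at 5.37.

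**Figure D2:**
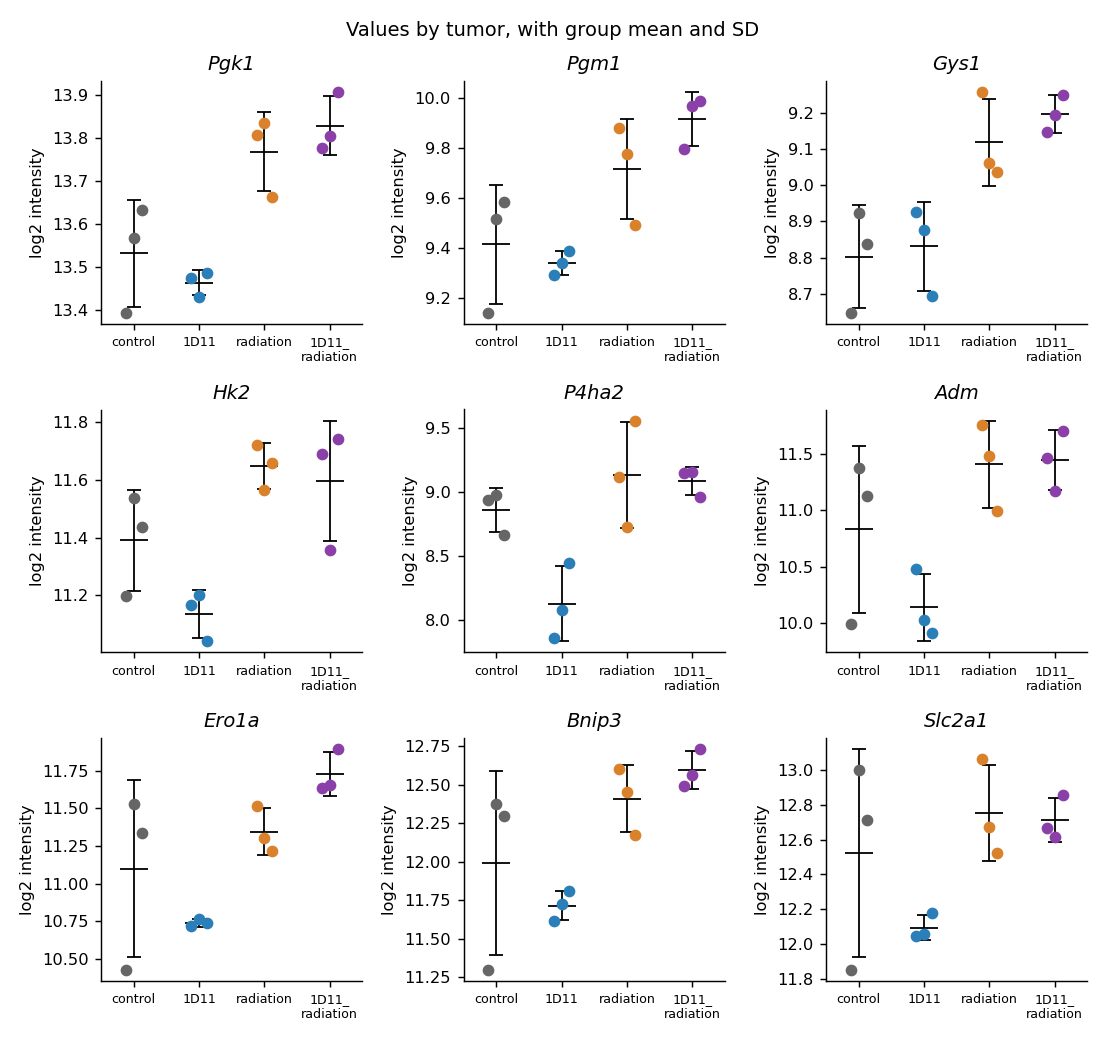
Log2 intensity of 9 members in each tumor (points), with the mean and SD of each group of 3 (black). Unirradiated 1D11 tumors form a narrow low group for Slc2a1, Bnip3 and Ero1a, while control replicate 1, at 11.86, 11.30 and 10.43, lies far below the other 2 control tumors.

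Genes of glycogen storage, which HIF also induces, gave some of the smallest p-values. Gys1, muscle-type glycogen synthase, was at 8.65, 8.92 and 8.84 in control, 8.93, 8.88 and 8.69 in 1D11, 9.26, 9.06 and 9.04 in radiation, and 9.15, 9.20 and 9.25 in 1D11_radiation tumors. No irradiated tumor overlapped an unirradiated one, and the rise was 0.34 ± 0.07 (1.27-fold, adjusted p = 0.0139). Pgm1, phosphoglucomutase, which links glycogen to glycolysis, was at 9.14, 9.52 and 9.58 in control, 9.29, 9.34 and 9.39 in 1D11, 9.88, 9.77 and 9.49 in radiation, and 9.79, 9.97 and 9.99 in 1D11_radiation tumors. Radiation replicate 3 fell among the control tumors and the other 5 irradiated tumors were higher, with a rise of 0.44 ± 0.09 (1.36-fold, adjusted p = 0.0161). The dimmer probe sets of these genes differed by 0.10 for Gys1 and 0.14 for Pgm1. The branching enzyme gene Gbe1 had 0.48 ± 0.16 (adjusted p = 0.0831).

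The largest changes were in HIF targets outside glycolysis. Adm encodes adrenomedullin, a vasodilator peptide. It was at 9.99, 11.37 and 11.12 in control, 10.48, 10.03 and 9.91 in 1D11, 11.75, 11.48 and 10.99 in radiation, and 11.46, 11.17 and 11.70 in 1D11_radiation tumors. Control replicates 2 and 3 lay within the irradiated range, while control replicate 1 and all 1D11 tumors lay below it, and Adm rose by 0.94 ± 0.23 (1.92-fold, adjusted p = 0.0327). Bnip3, a receptor for the removal of mitochondria, showed the same layout, with 11.30, 12.38 and 12.30 in control, 11.62, 11.72 and 11.81 in 1D11, 12.60, 12.45 and 12.17 in radiation, and 12.49, 12.57 and 12.73 in 1D11_radiation tumors. It rose by 0.65 ± 0.16 (1.57-fold, adjusted p = 0.0383). Ero1a, an oxidase of protein folding in the endoplasmic reticulum, was at 10.43, 11.53 and 11.34 in control, 10.72, 10.77 and 10.74 in 1D11, 11.52, 11.31 and 11.21 in radiation, and 11.64, 11.65 and 11.89 in 1D11_radiation tumors. Its rise was 0.62 ± 0.16 (1.53-fold, adjusted p = 0.0383), and its 2 other probe sets differed by 0.63 and 0.71.

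P4ha2, a subunit of collagen prolyl 4-hydroxylase, was at 8.94, 8.98 and 8.67 in control, 7.86, 8.08 and 8.44 in 1D11, 9.12, 8.73 and 9.56 in radiation, and 9.15, 9.16 and 8.96 in 1D11_radiation tumors. The 1D11 tumors were lowest, and the rise with radiation was 0.62 ± 0.14 (1.53-fold, adjusted p = 0.0238). The related hydroxylase genes stayed near 0, with P4ha1 at 0.08 ± 0.06, Plod1 at -0.09 ± 0.08 and Plod2 at -0.03 ± 0.10. Higd1a, a mitochondrial protein induced by low oxygen, reached at most 11.54 in unirradiated tumors, ran from 11.19 to 11.82 in irradiated tumors and rose by 0.43 ± 0.11 (adjusted p = 0.0398).

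Members that carry fuel and acid did not pass. Slc2a1, the glucose transporter GLUT1, was at 11.86, 13.00 and 12.71 in control, 12.05, 12.06 and 12.18 in 1D11, 13.06, 12.67 and 12.52 in radiation, and 12.67, 12.61 and 12.86 in 1D11_radiation tumors. Control replicates 2 and 3 were as high as irradiated tumors, and the difference was 0.42 ± 0.17 (adjusted p = 0.148). Pdk1, the kinase that closes the pyruvate gate, had 0.45 ± 0.20 (0.204), the glucose transporter Slc2a3 0.28 ± 0.14 (0.277) and the lactate exporter Slc16a3 0.09 ± 0.08 (0.501). The dimmer probe sets differed by 0.49 and 0.55 for Slc2a1, by 0.32 to 0.54 for Pdk1 and by -0.16 to 0.21 for Slc2a3. Slc16a3 had a mean of 5.97, close to the filter at 5.37. Car9, a membrane carbonic anhydrase widely used as a hypoxia marker, was at 5.86, 6.80 and 6.98 in control, 6.03, 6.65 and 6.81 in 1D11, 7.45, 7.44 and 7.04 in radiation, and 7.18, 6.70 and 7.12 in 1D11_radiation tumors. Its difference was 0.63 ± 0.20 (adjusted p = 0.0801), while that of Car12 was -0.05 ± 0.13. Car12, at a mean of 5.57, also lay close to the filter.

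Of the oxygen-sensing genes none passed. Hif1a was at 12.51, 12.64 and 12.64 in control, 12.52, 12.44 and 12.49 in 1D11, 12.69, 12.50 and 12.21 in radiation, and 12.64, 12.57 and 12.64 in 1D11_radiation tumors. Its difference with radiation was 0.00 ± 0.07. The other probe sets of Hif1a, all dimmer, did not share 1 direction and differed by -0.11, 0.03 and 0.22. HIF-1alpha is controlled mainly through its protein, which these arrays do not measure. Egln1 and Egln3, the prolyl hydroxylases and themselves HIF targets, had 0.22 ± 0.07 (adjusted p = 0.0732) and 0.29 ± 0.11 (0.122), sizes like those of Pgam1 and Pkm, with unadjusted p of 0.00775 and 0.0200. Of the remaining targets, the stress gene Ndrg1 had 0.73 ± 0.21 (0.062), Mxi1, a MYC antagonist, 0.29 ± 0.11 (0.125), Ak4, a mitochondrial adenylate kinase, 0.21 ± 0.09 (0.153), the histone demethylase gene Kdm3a 0.17 ± 0.09 (0.272), Ddit4, an mTOR inhibitor, 0.18 ± 0.16 (0.542) and Ankrd37 0.17 ± 0.20 (0.675).

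The 13 calls rest on all 12 tumors. Pgk1, Pgm1 and Gys1 passed with any single tumor left out, at adjusted p up to 0.0459. Each of the other 10 kept its direction but lost the call in 4 to 11 of the 12 fits that leave out a tumor, where the highest adjusted p was 0.0972. The count was 6, 4 and 5 without 1D11 replicates 1, 2 and 3, 4 and 5 without radiation replicates 1 and 2, and 4 without 1D11_radiation replicate 1 or 3. It was 18 without control replicate 2, 17 without radiation replicate 3, and 12 without control replicate 1, control replicate 3 or 1D11_radiation replicate 2. Over these 12 fits 3.20% to 9.11% of all tested genes were called, against 7.26% with all tumors. With the mean of all probe sets of a gene, Pfkfb3 (adjusted p = 0.068), Gys1 (0.085) and Higd1a (0.122) lost the call and Aldoa (0.031), Gapdh (0.0464) and Egln1 (0.0223) gained it.

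HIF acts through the core motifs ACGTG and GCGTG. The promoters shown are those of the 5 members with the smallest p-values among those whose window holds a motif, so that the set was chosen for holding one, and Gys1, second by p-value, was passed over because its window holds none. Windows were taken from RefSeq (GRCm38.p6), from 250 bases before to 50 after the annotated start, and searched on both strands, so that an ACGTG inside CACGTG is counted once per strand. Capitals mark the motifs, and positions are those of the first capital letter of a match on the printed strand, counted from 0 at the annotated start.
Pgk1: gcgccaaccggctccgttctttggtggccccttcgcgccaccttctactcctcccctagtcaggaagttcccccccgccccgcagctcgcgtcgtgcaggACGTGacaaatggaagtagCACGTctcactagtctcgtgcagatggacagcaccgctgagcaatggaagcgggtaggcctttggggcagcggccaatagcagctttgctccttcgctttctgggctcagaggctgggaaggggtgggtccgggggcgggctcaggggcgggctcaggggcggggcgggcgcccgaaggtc
Pgm1: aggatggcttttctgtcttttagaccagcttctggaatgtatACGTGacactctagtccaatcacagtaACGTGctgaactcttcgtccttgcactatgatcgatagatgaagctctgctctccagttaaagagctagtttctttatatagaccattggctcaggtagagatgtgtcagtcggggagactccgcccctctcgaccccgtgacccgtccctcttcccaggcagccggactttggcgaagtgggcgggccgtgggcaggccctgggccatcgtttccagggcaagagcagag
Pfkfb3: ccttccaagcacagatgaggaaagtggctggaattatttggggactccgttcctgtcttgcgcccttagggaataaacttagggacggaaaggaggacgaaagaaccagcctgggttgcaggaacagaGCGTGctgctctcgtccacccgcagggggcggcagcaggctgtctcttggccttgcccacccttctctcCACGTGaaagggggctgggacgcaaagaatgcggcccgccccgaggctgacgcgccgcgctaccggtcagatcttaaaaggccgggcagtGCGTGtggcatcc
Hk2: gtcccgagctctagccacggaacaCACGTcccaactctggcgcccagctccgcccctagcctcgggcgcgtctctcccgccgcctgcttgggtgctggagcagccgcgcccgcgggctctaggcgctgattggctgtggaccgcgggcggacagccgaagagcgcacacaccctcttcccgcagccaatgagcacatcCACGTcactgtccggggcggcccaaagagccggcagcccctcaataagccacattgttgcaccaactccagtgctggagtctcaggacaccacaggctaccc
P4ha2: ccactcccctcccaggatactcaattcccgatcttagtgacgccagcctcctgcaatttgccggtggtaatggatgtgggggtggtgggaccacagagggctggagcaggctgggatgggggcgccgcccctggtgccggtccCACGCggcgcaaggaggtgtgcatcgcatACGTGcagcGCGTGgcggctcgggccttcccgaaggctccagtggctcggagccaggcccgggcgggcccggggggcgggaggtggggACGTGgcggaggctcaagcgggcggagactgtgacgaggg
The Pgk1 window (chrX:106186850-106187149, plus strand) held 2 ACGTG matches, at -150 and, on the other strand, at -131. The Pgm1 window (chr4:99929201-99929500, plus strand) held 2, at -208 and -181. That of Pfkfb3 (chr2:11502041-11502340, minus strand) held a CACGTG at -53 and GCGTG at -122 and 37. It was taken as the 1 of 2 annotated Pfkfb3 windows with more matches, and the other held 1 ACGTG. The Hk2 window (chr6:82774405-82774704, minus strand) held ACGTG on the other strand at -226 and -52. The P4ha2 window (chr11:54100674-54100973, plus strand) held ACGTG at -78 and 10 and GCGTG at -69 and, on the other strand, -107.

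Of the 43 listed genes 39 had a window, and those without one were Bnip3l, Ndrg1, Plod2 and Slc2a3. At least 1 motif stood in a window of 12 of the 13 members that rose (92.3%), of 21 of 25 tested members that did not pass (84.0%), and of 46.7% of all 27025 genes in the table. Some genes have several windows, and counted by window the shares were 87.5%, 73.0% and 43.8%. Base composition differs between these sets: median GC content was 65.8% in windows of members that rose, 63.3% in those of the other tested members and 52.7% in all windows, with a median of 25.5, 21.0 and 7.0 CpG. The motif shares are a description of the letters and do not show binding.

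Radiation was next compared within each antibody. Under 13C4 (radiation against control) 32 of 41 members were higher, against 49.6% of all tested genes, with a median of 0.16 against -0.0015 for all genes tested. None was called by limma, where 2.39% of all tested genes were, 1.48% higher and 0.911% lower. At an unadjusted p under 0.05, 10 members were higher and none lower, against 10.0% of all tested genes higher and 8.74% lower. In 8 members the radiation tumors lay wholly above the controls (10.6% of all tested genes), 6 of them glycolytic enzymes: Hk2, Tpi1, Gapdh, Pgk1, Pkm and Ldha, with Gys1 and Car9. Gys1 had 0.32 ± 0.09 (adjusted p = 0.101), Pgk1 0.24 ± 0.08 (0.132), Ldha 0.16 ± 0.06 (0.167) and Car9 0.77 ± 0.28 (0.181). Gapdh differed by 0.16 ± 0.06 (0.211), Pgm1 by 0.30 ± 0.13 (0.226) and Adm by 0.58 ± 0.32 (0.368), and these 3 also missed the threshold. Pfkfb3 was at 0.41 ± 0.16 (0.211) and, without radiation replicate 3, at 0.62 ± 0.12 (adjusted p = 0.0295). It was the 1 member called in that fit, where 3.16% of all tested genes were called. Without control replicate 1 the median of glycolytic enzymes was 0.11 and that of other members 0.015, against 0.16 and 0.18 with it, and that of all 41 was 0.07.

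Under 1D11 (1D11_radiation against 1D11) 39 of 41 members were higher, against 42.4% of all tested genes, with a median of 0.36 against -0.03 for all genes tested. None was called by limma, where 0.0785% of tested genes were, 0.0314% higher and 0.0471% lower. At an unadjusted p under 0.05, 26 members were higher and 1, Pfkfb4, was lower (-0.26), against 5.22% of all tested genes higher and 10.3% lower. In 32 members the 1D11_radiation tumors lay wholly above the 1D11 tumors (9.59% of all tested genes), 13 of 15 glycolytic enzymes and 19 of 26 others. Pfkfb4 alone lay wholly below, where 16.5% of all tested genes did. The median was 0.29 for glycolytic enzymes and 0.40 for other members. Adm differed by 1.30 ± 0.32 (2.47-fold, adjusted p = 0.103), Ndrg1 by 1.01 ± 0.30, Ero1a by 0.99 ± 0.22 (1.98-fold, 0.0861), P4ha2 by 0.96 ± 0.20 (1.94-fold, 0.0669) and Bnip3 by 0.88 ± 0.23 (1.84-fold, 0.12). Among glycolytic enzymes, Pgk1 had 0.36 ± 0.08 (0.0751), Hk2 0.46 ± 0.11 (0.103), Pfkfb3 0.63 ± 0.16 (0.117) and Pgam1 0.29 ± 0.08 (0.118). Pgm1 was at 0.58 ± 0.13 (0.0832) and Egln1 at 0.42 ± 0.09 (0.0843).

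Calls under 1D11 also depended on a control tumor, since the fit shares 1 estimate of the spread over all groups. Without control replicate 1, 1.78% of all tested genes were called under 1D11, against 0.0785% with it, and 12 members rose: Pgk1, Pkm, Slc2a1, Pgm1, Egln1, Egln3, P4ha2, Ero1a, Bnip3, Higd1a, Ndrg1 and Adm. Their log2 differences, which do not use the control tumors, stayed as given, and adjusted p ran from 0.00628 for Ero1a to 0.0493 for Slc2a1. With the 1D11 and 1D11_radiation groups fitted alone 9 rose, and 0.934% of all tested genes were called.

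**Figure D3:**
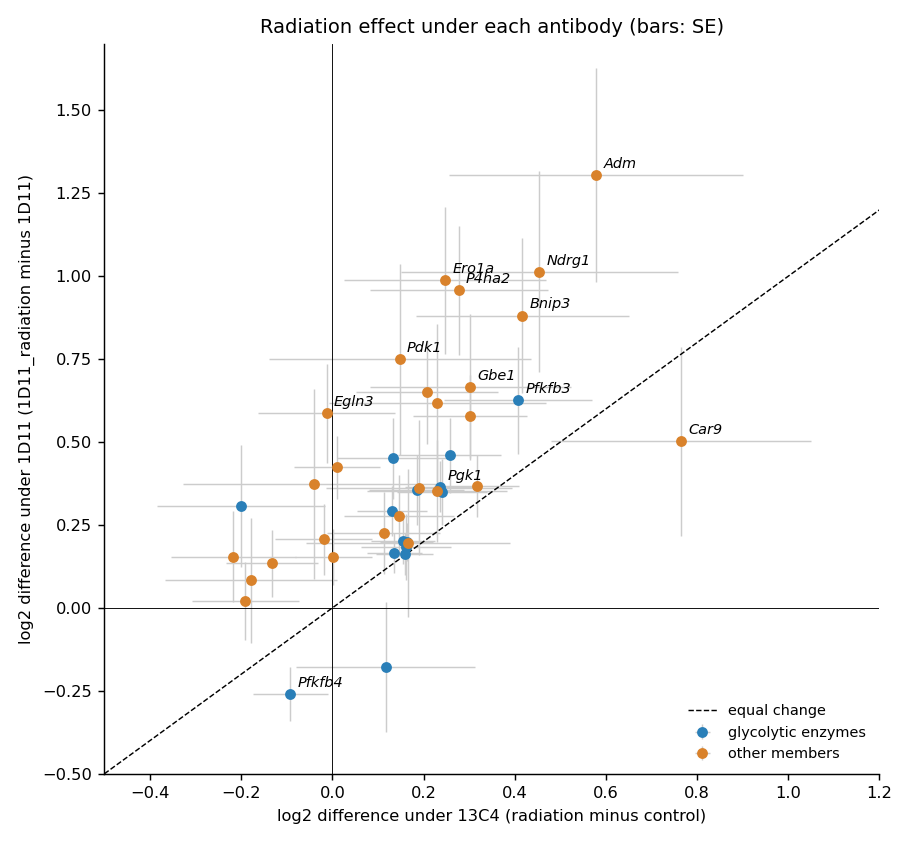
Log2 difference with radiation under 13C4 (horizontal) and under 1D11 (vertical) for the 41 members, with SE bars; the dashed line marks equal change. Of the points 38 lie above the line, with Adm at 0.58 and 1.30, while Car9, at 0.77 and 0.50, is 1 of 3 below it.

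The difference between both radiation effects was tested as an interaction. It was above 0 in 38 of 41 members, against 42.2% of all tested genes, with a median of 0.21 (0.11 for glycolytic enzymes, 0.32 for other members, -0.03 for all genes tested). None passed with limma, nor did any of the 12736 genes, and 4 members were higher and none lower at an unadjusted p under 0.05, against 2.38% of all tested genes higher and 5.10% lower. These were Egln1 (0.41 ± 0.13, adjusted p = 0.479), Egln3 (0.60 ± 0.21, 0.55), P4ha2 (0.68 ± 0.28, 0.616) and Ero1a (0.74 ± 0.31, 0.627). Without control replicate 1, Ero1a had an interaction of 1.07 ± 0.15 (adjusted p = 0.0324), in a fit that called 0.165% of all tested genes. With the skeletal muscle score as a covariate the median interaction over the members was 0.0009. Marker lists of other cells moved in the same contrast: all 23 skeletal muscle markers (median -1.70, 2 at an unadjusted p under 0.05) and all 11 macrophage markers (-0.63, 7 at that p) lay below 0, and 12 of 14 endothelial markers above 0 (0.39, 4 at that p). None of these markers was called by limma, and their part in the members' interaction was not tested.

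Without radiation, the members were lower under 1D11 than under 13C4 in 33 of 41 cases, while 62.1% of all tested genes were higher. The members' median was -0.12, against 0.04 for all genes tested. None was called by limma, where 2 of 12736 genes were (0.0157%). At an unadjusted p under 0.05, 6 members were lower and none higher, against 5.12% of tested genes lower and 9.01% higher. P4ha2 differed by -0.73 ± 0.20 (0.603-fold, adjusted p = 0.177), Egln3 by -0.43 ± 0.15 (0.242), P4ha1 by -0.21 ± 0.08 (0.305) and Egln1 by -0.23 ± 0.09 (0.317). Of the glycolytic enzymes, Pfkp had -0.27 ± 0.12 (0.346), Hk2 -0.25 ± 0.11 (0.346), Pfkfb3 -0.29 ± 0.16 (0.437) and Pgam1 -0.13 ± 0.08 (0.451). The 3 1D11 tumors lay wholly below the controls for P4ha2, P4ha1, Ak4, Pgam1 and Pfkfb3, where 6.95% of all tested genes did so. Without control replicate 1 the median was -0.21, and Ero1a fell by 0.69 ± 0.11 on the log2 scale (adjusted p = 0.0464), where it had -0.36 ± 0.22 (0.489) with that tumor. Without that tumor 0.165% of all tested genes were called. This comparison shares its control and 1D11 tumors with the radiation comparisons above.

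In irradiated tumors the antibodies gave closer values. The members' median was 0.06 for 1D11_radiation against radiation, and 29 of 41 were higher, against 50.8% of all tested genes. None was called by limma, nor was any gene, and no member had an unadjusted p under 0.05, against 2.74% of tested genes higher and 2.66% lower. Slc2a3 had 0.44 ± 0.20, Egln1 0.18 ± 0.09, Plod2 0.25 ± 0.14 and Ero1a 0.38 ± 0.22, and among glycolytic enzymes Pfkfb4 had -0.14 ± 0.08 and Eno2 0.31 ± 0.18, all at adjusted p of 0.84. P4ha2 differed by -0.05 ± 0.20. The 1D11_radiation tumors lay wholly above the radiation tumors for 3 of 41 members, Egln1, Ero1a and Car12. That is about the share of all tested genes that did so (7.30%). No member lay wholly below, where 6.12% of all tested genes did. The Car12 values were close to the filter on low values. Averaged over radiation, 1D11 against 13C4 gave a median of -0.03, with 16 of 41 members higher against 59.0% of all tested genes. None was called by limma, where 1 of 12736 genes was (0.00785%), and 3 members had an unadjusted p under 0.05. P4ha2 (-0.39 ± 0.14, adjusted p = 0.322) and P4ha1 (-0.14 ± 0.06, 0.38) were lower, about the share of tested genes that were (4.72%). Slc2a3 was higher (0.36 ± 0.14, 0.365), where 7.77% of tested genes were.

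**Figure D4:**
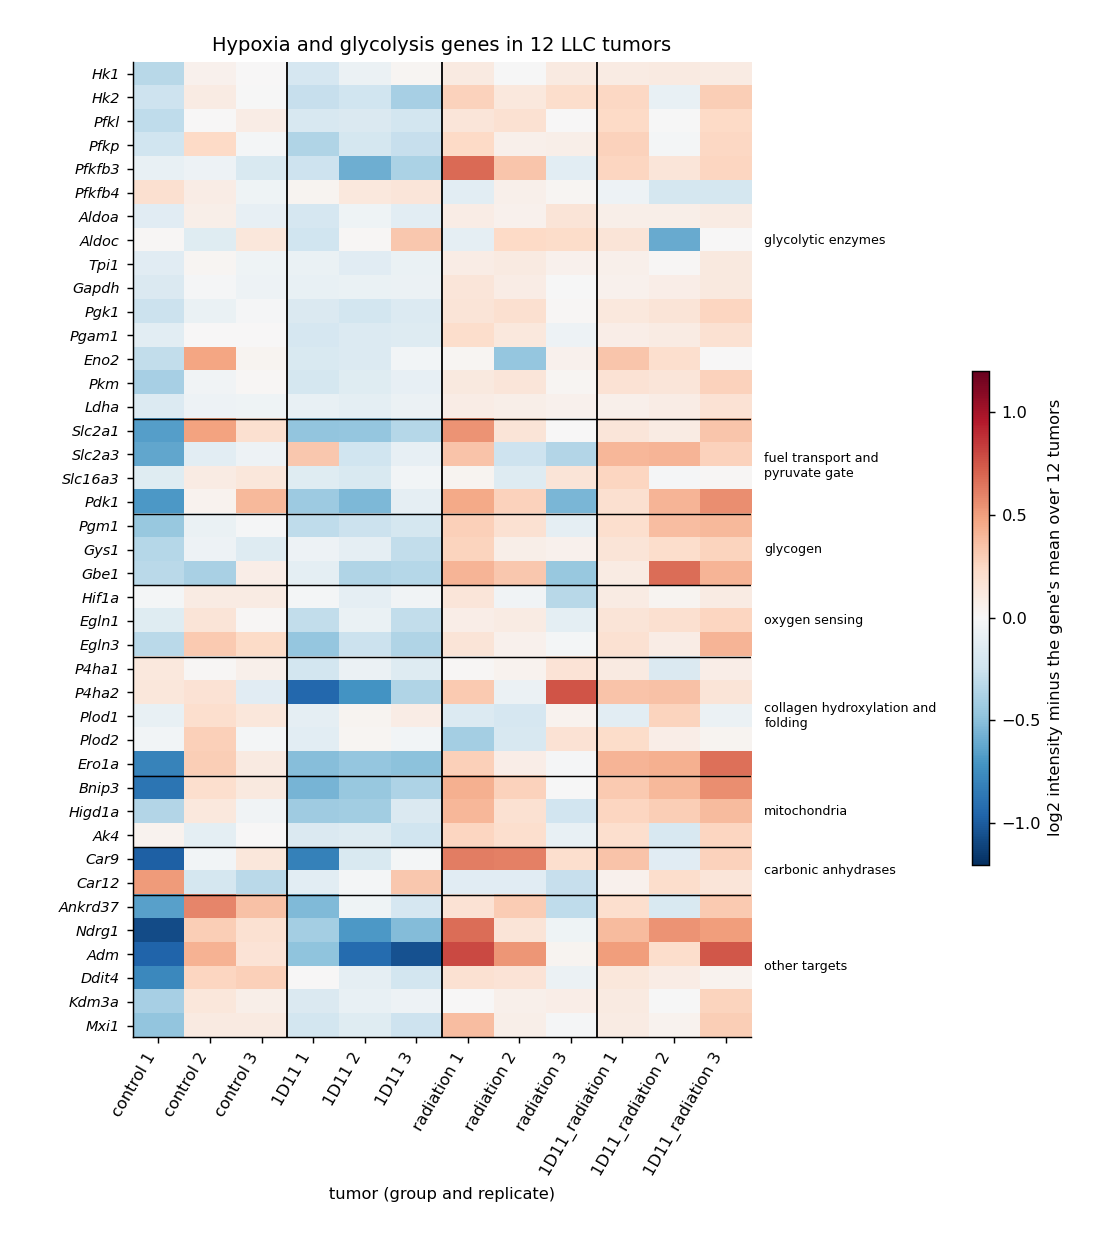
Log2 intensity of each measured member in each tumor, centred on the gene's mean over 12 tumors (red above, blue below), with genes grouped by role. Blue columns are control replicate 1 and the 3 1D11 tumors, in which 3 to 6 of the 41 members exceed their own mean, while 22 to 39 do so in the 6 irradiated tumors.

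Tumor by tumor, the members split the unirradiated samples. In 1D11 replicates 1, 2 and 3, 3, 4 and 5 of the 41 members lay above their own mean, and in control replicate 1 it was 6. In control replicates 2 and 3 the number was 28 and 25. It was 36, 32 and 22 in radiation and 39, 30 and 39 in 1D11_radiation tumors. Over all tested genes, 42.5% to 58.5% lay above their mean in any tumor. Control replicate 1 held the lowest value of 19 members, 1D11 replicate 1 that of 8, and 1D11_radiation replicate 3 the highest value of 14 and radiation replicate 1 of 12. Of all tested genes, 15.82% were lowest in control replicate 1, the largest such share of any tumor, and 5.15% in 1D11 replicate 1. The share highest in 1D11_radiation replicate 3 was 3.84%, and in radiation replicate 1 it was 7.36%. By group means, 1D11 was the lowest group for 29 of 41 members (70.7%) and for 16.6% of all tested genes, and 1D11_radiation the highest for 28 (68.3%) and for 21.8% of all tested genes. Members varied more between tumors than most genes, with a median SD over 12 tumors of 0.18 for glycolytic enzymes and 0.29 for other members, against 0.14 over all tested genes.

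**Figure D5:**
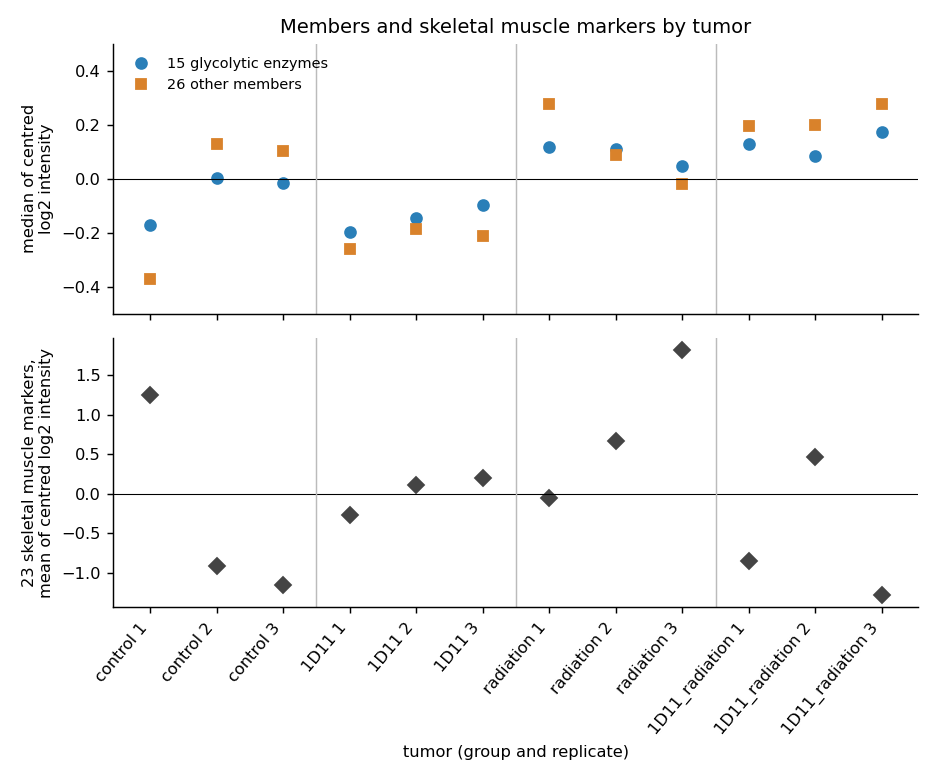
Upper panel: median over 15 glycolytic enzymes and over 26 other members of log2 intensity centred per gene, for each tumor. Lower panel: the same scale averaged over 23 skeletal muscle markers. Control replicate 1 (1.25) and radiation replicate 3 (1.82) carry most muscle signal and hold the lowest member medians of their groups. Of the other groups, 1D11_radiation had its lowest member median in replicate 2, with most muscle (0.47), and 1D11 in replicate 1, with least (-0.27).

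Skeletal muscle, itself rich in glycolytic enzymes, was present in varying amounts. Of 23 muscle markers 22 lay above the filter, and their summed intensity ran from 3759 to 24421 in control, 7363 to 11603 in 1D11, 8905 to 36628 in radiation and 3271 to 12510 in 1D11_radiation tumors, with no marker called by limma in any contrast. Averaged over both antibodies their median difference with radiation was 0.25, with none at an unadjusted p under 0.05. Within the antibodies the list was unbalanced: 23 of 23 were higher in radiation than in control tumors (median 1.09, 2 at that p), 23 of 23 lower in 1D11_radiation than in 1D11 tumors (-0.63, 0 at that p) and 23 of 23 lower in 1D11_radiation than in radiation tumors (-1.45, 4 at that p). Muscle forms of glycolytic genes, which are not members, were highest in radiation replicate 3: Pygm, muscle glycogen phosphorylase, was at 7.84 there and at 5.41 to 6.16 elsewhere, and Pgam2 at 8.69 against 6.35 to 7.68. With the muscle score as a covariate 24 members rose with radiation over both antibodies, where 10.7% of all tested genes were called. In that fit 11 rose under 13C4 (4.51% of all tested genes called), namely Hk2, Pfkl, Pgk1, Pkm, Pgm1, Gys1, Bnip3, Car9, Ndrg1, Adm and Mxi1, and 1, Adm, rose under 1D11 (0.11%). With control replicate 1 and radiation replicate 3 both left out, 19 rose over both antibodies (11.1%), 18 under 1D11 (3.29%) and 1, Pfkfb3, under 13C4 (4.47%).

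Other cell types moved with radiation as well, and their part in the members' changes was not tested. Of 14 endothelial markers 5 fell, with a list median of -0.38 and summed intensity of 1975 to 3080 in unirradiated and 1616 to 2182 in irradiated tumors. Under 13C4 the median was -0.60 with 6 called lower, and under 1D11 it was -0.15 with none called by limma and 2 lower at an unadjusted p under 0.05. Of 12 fibroblast and pericyte markers 4 fell, at a median of -0.31, and of 12 markers of cytotoxic lymphocytes 5 rose, at 0.46. Under 13C4 these 2 lists had medians of -0.63, with 5 called lower, and 0.62, with 5 called higher, and under 1D11 of -0.31 and 0.21, with none called by limma and 3 of each at an unadjusted p under 0.05. Of 11 macrophage markers 1 rose over both antibodies, at a median of 0.08. Under 13C4 10 of the 11 were higher (0.34, 3 called), under 1D11 10 of 11 were lower (-0.26, none called, 2 at that p), and 10 of 11 were higher in 1D11 than in control tumors (0.30, none called, 4 at that p). By limma no neutrophil marker was called (2 at an unadjusted p under 0.05), nor any proliferation marker (0 at that p, median 0.11). Keratinocyte markers summed to 525 to 3416 in 1D11 tumors and to at most 549 in the other groups, and 7 of 12 lay below the filter. Of 7 markers of the tumor cells' epithelial and mesenchymal state 6 were higher over both antibodies, at a median of 0.22, with 1 called (Krt19) and 3 at an unadjusted p under 0.05, and the epithelial adhesion gene Cdh1 lay below the filter. As a measure of RNA integrity, the log2 difference between the 3' and 5' Gapdh control probe sets lay between -0.01 and 0.16 in unirradiated and between 0.00 and 0.17 in irradiated tumors. No gene of the stress and RNA quality list was called by limma (2 higher at an unadjusted p under 0.05).

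Beyond the members, other genes of the same pathways divided by branch. Of 52 further measured genes of the HIF pathway 35 were higher with radiation over both antibodies, against 45.3% of all tested genes, at a median of 0.11. Of the 49 tested 8 rose and none fell, where 3.39% of all tested genes rose and 3.87% fell. At an unadjusted p under 0.05, 14 were higher and 4 lower, against 10.8% and 13.6% of all tested genes. The lowest difference was -0.54. Fam162a, a mitochondrial HIF target, was at 12.15 to 12.48 in unirradiated and 12.66 to 12.79 in irradiated tumors, with a rise of 0.40 ± 0.06 (adjusted p = 0.00582). Vldlr, a lipoprotein receptor, rose by 1.10 ± 0.23 (2.14-fold, 0.0191), Ampd3, an AMP deaminase, by 0.64 ± 0.15 (0.0271) and the cytokine gene Mif by 0.17 ± 0.04 (0.0356). The remaining 4 were Vegfa, the angiogenic growth factor, with Hmox1 and the metallothionein genes Mt1 and Mt2. Of 26 further measured genes of glycolysis and glycogen, 22 of them tested, 13 were higher and 13 lower, at a median of -0.01. Of these Hk3, a hexokinase of leukocytes, rose by 0.38 ± 0.07 (adjusted p = 0.0128), and Pygl (0.24 ± 0.10), Eno3 (0.38 ± 0.16) and Pdk3 (0.12 ± 0.05) had the next smallest p-values, at adjusted p of 0.16 to 0.225. Under 13C4 alone, 1 gene of the 2 lists, Hk3, was called (0.56 ± 0.10, adjusted p = 0.022), where 2.39% of all tested genes were.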

How the data were processed

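Biotin-labelled cRNA from 6 µg of total RNA per tumor was hybridised to 1-color Affymetrix arrays, per the labels' protocols. The deposited values are probe set intensity summaries on a linear scale, from 7.40 to 30798. How background was corrected and arrays normalized is not stated in the labels. Array medians lay between 62.3 and 66.1, so the authors' values were used as log2 intensity with no further scaling. Array background is not known, and 3 arrays per group limit the precision.

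Of 45101 probe sets, 34945 had a single symbol, 932 several and 9160 none; 64 control probe sets were left out, except Gapdh's. Genes in the lowest 30 percent of means, below 5.37, were not tested. limma 3.58.1 in R 4.3.3 fitted 1 mean per group over 12 arrays (lmFit, eBayes). Tests were two-sided, with Benjamini-Hochberg adjustment over 12736 genes and calls at 0.05. The script was tested on simulated data. Medians cover all measured members.

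Members, role groups, other lists and alternatives were chosen with earlier results of these data known. The naming rule took called members, up to 4 of smallest p per contrast in glycolytic enzymes and in other members, and Hif1a, Slc2a1, Hk2, Pgk1, Ldha, Egln3, Bnip3, Car9 and P4ha2. Of other pathway genes, up to 4 were named per list; Vegfa, Hmox1, Mt1, Mt2, Pygm and Pgam2 were named after their values were seen. No 2 arrays were copies (SD of log2 differences at least 0.180).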

Additional observations from a re-analysis of the deposited data

How the results depend on the processing

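No member changed sign in any alternative for the 13 calls of the radiation effect over both antibodies. That count of 13 (7.26% of all tested genes called) was 26 with array weights (17.1%), 24 with the muscle score as a covariate (10.7%) and 7 with the replicate block (5.17%). It was 4 to 18 with single tumors left out (3.20% to 9.11%). Percentages in brackets here and below are shares of all tested genes called in the same fit. For radiation under 1D11 the count of 0 (0.0785%) was 28 with array weights, 27 of them higher (11.7%). It was 9 with only the groups compared (0.934%), and 1 with a trended and robust prior (0.495%) or the muscle score (0.11%). The count reached 18 (3.29%) when control replicate 1 and radiation replicate 3 were both left out. It stayed between 0 and 12 with single tumors left out (0.00785% to 1.78%). Under 13C4 it was 11 with the muscle score (4.51%), 1 with array weights (6.99%) or without both tumors (4.47%), and 0 to 1 with single tumors left out (0.157% to 3.42%). For 1D11 against control it was 4 lower without both tumors (0.463%), Slc2a1, Egln3, Ero1a and Bnip3, and 0 to 1 with single tumors left out (0% to 0.165%). For the interaction it was 1 without both tumors (0.157%) and 0 to 1 with single tumors left out (0% to 0.165%). The median interaction of 0.21 was 0.0009 with the muscle score. For 1D11_radiation against radiation and for 1D11 averaged over radiation the count stayed at 0 in every alternative run. The median for 1D11_radiation against radiation (0.06) was -0.06 with the muscle score. Other medians over all 41 members moved by less than 0.118, the pooled SD within groups of the single tumors' member medians. That spread is not the error of a contrast, and it is about as large as some of these medians. The changes given above without control replicate 1, under 13C4 and for 1D11 against control, lie within it. In that fit the medians of the 26 members outside glycolysis were 0.015 under 13C4 and -0.31 for 1D11 against control. The causes were not tested. Deviations from group means of same-numbered arrays, taken across genes, had correlations of -0.308 to 0.272, over 0.1 in 3 of 18 pairs. Such correlations cannot show whether same-numbered samples were handled together. Over all genes, the replicate block moved the radiation count over both antibodies from 925 to 658 and array weights to 2177.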
